A study of Mus musculus with 2 samples.

Results

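The miR-26 family of the mouse comprises 3 microRNA (miRNA) genes, Mir26a-1, Mir26a-2 and Mir26b, each lying within a Ctdsp phosphatase gene. They were taken by gene name in the GENCODE M21 annotation and make up 3 of the 2202 annotated miRNA genes counted in the series. Small RNA of wild-type mouse cerebral cortex was sequenced in 2 libraries, replicate 2 and replicate 1, which form a single untreated control group of strain B6NCrl. The sample text calls the animals female, whereas the sex and age fields state that neither was collected, and the developmental stage is unknown. Each library has a tissue record of its own but both cite 1 donor record, so separate animals are not stated, and the spread between the libraries may be technical in part. No other genotype, treatment or tissue was available to compare, so the values describe levels in cortex and the difference between 2 libraries.

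A miRNA is cut from a hairpin precursor, and either arm of the hairpin (5p or 3p) can yield a mature strand that guides repression of messenger RNAs through its seed, the bases from position 2 to position 8. miR-26 is carried by many tissues, represses the histone methyltransferase Ezh2, and is transcribed together with its hosts. The Ctdsp1, Ctdsp2 and Ctdspl proteins remove phosphate from the tail of RNA polymerase II and work with REST, the repressor that keeps neuronal genes silent outside neurons. In zebrafish, miR-26b represses its own host ctdsp2 as neurons form.

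The precursors are shown because the 5p arm is what the Mir26a genes share and the rest of the hairpin is what separates them. They are RefSeq sequences of build GRCm38.p6, all on the plus strand, with the 5p and then the 3p arm in capitals. RefSeq held all 3, and all 3 were identical to the GENCODE precursors.
Mir26a-1, chr9:119031796-119031885: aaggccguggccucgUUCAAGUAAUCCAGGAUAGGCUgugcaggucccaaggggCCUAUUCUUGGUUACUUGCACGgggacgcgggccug
Mir26a-2, chr10:126995530-126995613: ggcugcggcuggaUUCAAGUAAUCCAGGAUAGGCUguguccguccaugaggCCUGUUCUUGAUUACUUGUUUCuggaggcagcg
Mir26b, chr1:74394310-74394394: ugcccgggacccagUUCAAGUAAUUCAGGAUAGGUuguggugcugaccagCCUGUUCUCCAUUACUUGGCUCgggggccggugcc

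The mature strands follow, with the seed in capitals, since the seed decides which messenger RNAs a miRNA can pair with.
miR-26a-5p, from Mir26a-1 and Mir26a-2: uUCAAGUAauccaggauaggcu
miR-26b-5p: uUCAAGUAauucaggauaggu
miR-26a-1-3p: cCUAUUCUugguuacuugcacg
miR-26a-2-3p: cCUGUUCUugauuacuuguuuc
miR-26b-3p: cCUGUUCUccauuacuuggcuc

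The 5p arms of all 3 genes carried 1 seed, UCAAGUA, and no other gene among the 1738 mature entries of the RefSeq table carried it. The 5p arms of Mir26a-2 and Mir26a-1 were identical over 22 bases. That of Mir26b was 21 bases long and differed from them at 2 positions, C11U and C21U, counted from 1 at the 5′ end with the miR-26a base first. Both differences lie outside the seed.

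The 3p arms were less alike. Those of Mir26a-2 and Mir26b shared the seed CUGUUCU, which 2 other mature entries (miR-6932-3p and miR-7039-3p) also held, and differed at 4 of 22 positions. The 3p arm of Mir26a-1 had the seed CUAUUCU, found in no other entry. It differed from that of Mir26a-2 at 6 of 22 positions (A4G, G11A, C19U, A20U, C21U and G22C, with the Mir26a-1 base first), and the first of these lies in the seed. Aligned end to end, the Mir26a-1 and Mir26a-2 precursors matched at 66 of 91 columns (72.5%). Mir26b matched Mir26a-1 at 68.8% of columns and Mir26a-2 at 67.4%. The precursors were 90, 84 and 85 bases long for Mir26a-1, Mir26a-2 and Mir26b, with a GC content of 60.0%, 53.6% and 58.8%. Their lowest predicted folding energies were -49.4, -44.5 and -43.5 kcal/mol.

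Each gene sits in an intron of its host and on the host's strand. Mir26b lies in intron 4 of Ctdsp1-201, an intron of 564 bases, 234 bases after the upstream exon and 245 bases before the next. Mir26a-1 lies in intron 5 of Ctdspl-201, an intron of 3283 bases, 1543 and 1650 bases from its exons, while Ctdspl as a whole spans 117546 bases of chromosome 9. Mir26a-2 lies in intron 5 of Ctdsp2-202, an intron of 1946 bases, 1621 bases after the upstream exon and 241 bases before the next. A pair of shorter Ctdsp2 transcripts, Ctdsp2-201 and Ctdsp2-203, are annotated to start at position 126995613 of chromosome 10, which is the last base of the Mir26a-2 precursor, so that 1 base of the precursor is also exonic. No such overlap was annotated for Mir26a-1 or Mir26b.

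**Figure D1:**
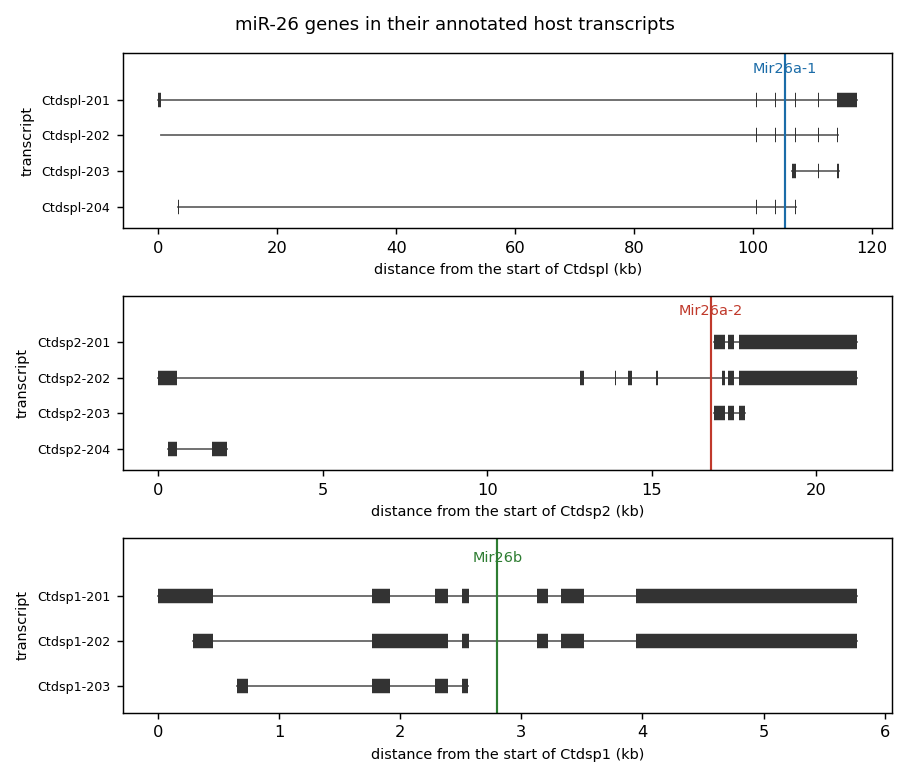
Annotated transcripts of the host genes, with distance from the host's start in kb on the x axis, exons as thick bars, introns as thin lines and the miRNA gene as a vertical line. Mir26b and Mir26a-1 stand within introns, whereas Mir26a-2 stands within an intron of Ctdsp2-202 and at the start of Ctdsp2-201 and Ctdsp2-203.

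The deposited values are read counts per miRNA gene. Replicate 2 held 6985784 counts in the sense direction of a gene and replicate 1 held 4429633. A count of 0 (a limit of 3 counts) allows 0.429 CPM in replicate 2 and 0.677 CPM in replicate 1, where CPM is a gene's count per 1000000 sense counts of its library. The tables give multiply placed reads a line of their own, and no gene's count includes them. They made up 47.9% of reads in replicate 2 (95% Wilson interval 47.9 to 47.9) and 43.9% in replicate 1 (43.8 to 43.9). The fixed neuron markers summed to 74040 CPM in replicate 2 and 54432 CPM in replicate 1, nearly all of it Mir132, Mir128-1 and Mir138-1. The 3 Mir124a genes had 31 and 17 counts. Any read that fits more than 1 of these 3 genes is left out of their counts, which are therefore not levels of mature miR-124. Markers of other cells were present too. Oligodendrocyte markers summed to 7841 CPM in replicate 2 and 7099 CPM in replicate 1, those of endothelium and mural cells to 5010.5 and 3856, and those of microglia and leukocytes to 1279 and 892. Red blood cell markers summed to 10.7 CPM in replicate 2 and 2.48 CPM in replicate 1, of which Mir144 had 0 and 0.677 CPM. Of 2 muscle markers, Mir206 had 29.5 and 19.9 CPM while Mir133a-1 had no count in either library. The tables hold no molecular identifiers, so all intervals cover counting error only.

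The rule on reads placed at several loci touches the Mir26a genes. By contrast, no window of 18 or 22 bases of Mir26b occurred unchanged in another annotated precursor. The longest run shared by the Mir26a-1 and Mir26a-2 precursors was 25 bases, uucaaguaauccaggauaggcugug, which starts at the first base of the 5p arm and runs 3 bases past its end. Of the 22-base windows of Mir26a-1, 4 of 69 occurred unchanged in Mir26a-2, and of those of Mir26a-2, 4 of 63 occurred in Mir26a-1. These windows include the whole mature 5p arm. A read lying within that run matches both loci, so the counts of the Mir26a genes are not levels of miR-26a-5p. The 3p arms were further from any other annotated precursor, by 6 mismatches for Mir26a-1 and 4 for Mir26a-2. For Mir26b, 0 of 64 windows of 22 bases occurred in another precursor and 0 lay within 1 mismatch of one. Its 5p arm was 2 mismatches away from the nearest. Of its 68 windows of 18 bases, 4 lay 1 mismatch away from a Mir26a precursor. The tables do not say which arm a count came from, and the genome outside annotated precursors was not searched.

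**Figure D2:**
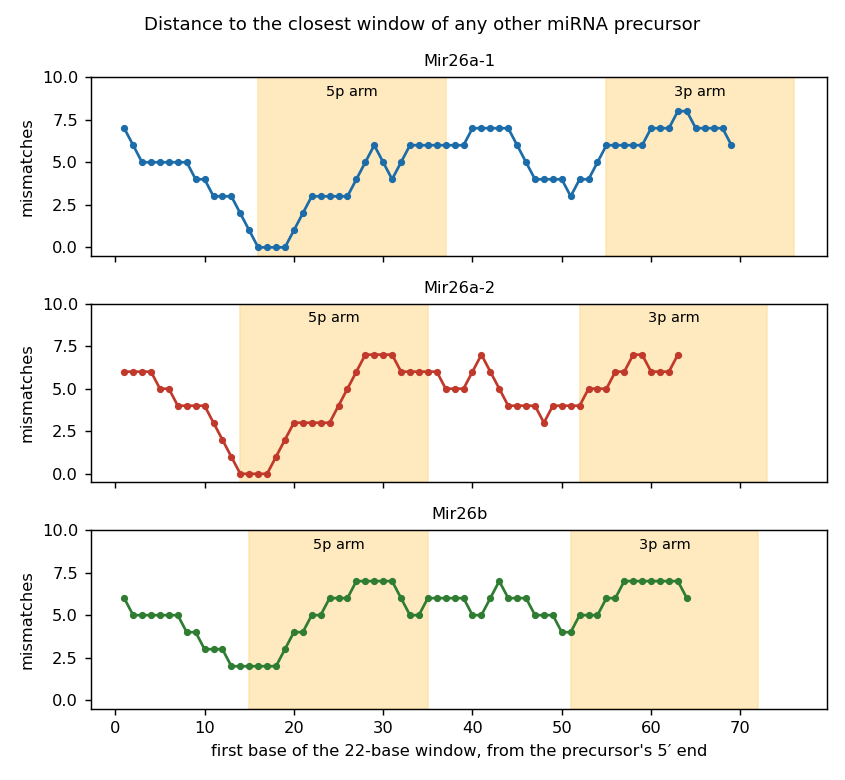
For each 22-base window of a precursor (x axis, position of its first base from the 5′ end), the number of mismatches to the closest window of any other annotated miRNA precursor (y axis), with the 5p and 3p arms shaded. Mir26a-1 and Mir26a-2 each reach 0 mismatches at 4 windows that begin in the 5p arm, whereas the curve of Mir26b stays at 2 or above.

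By uniquely placed reads, which leave out those matching both Mir26a genes, Mir26b was the leading gene of the family in both libraries. It had 22461 counts in replicate 2 and 7433 in replicate 1, or 3215 CPM (95% Wilson interval 3174 to 3258) and 1678 CPM (1640.3 to 1717). It ranked 48 among 2202 genes in replicate 2 and 77 in replicate 1, with a mean of 2447 ± 1087 CPM (SD, n = 2). Replicate 2 was the higher library and the intervals did not overlap.

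Mir26a-2 had 2238 counts in replicate 2 and 27 in replicate 1, or 320.4 CPM (307 to 334) and 6.10 CPM (4.19 to 8.87). Its rank was 147 in replicate 2 and 362 in replicate 1. The mean of 163 ± 222 CPM (SD, n = 2) has an SD above the mean and describes neither library.

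Mir26a-1 was the lowest member by mean, at 56 counts in replicate 2 and 19 in replicate 1, or 8.02 CPM (6.17 to 10.4) and 4.29 CPM (2.75 to 6.70). It ranked 325 and 389, with a mean of 6.15 ± 2.64 CPM (SD, n = 2). In replicate 1 the intervals of Mir26a-2 and Mir26a-1 overlapped, so these neighbours in the order were not told apart there, whereas in replicate 2 they were far apart. None of the 3 genes had a count on the opposite strand in either library.

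**Figure D3:**
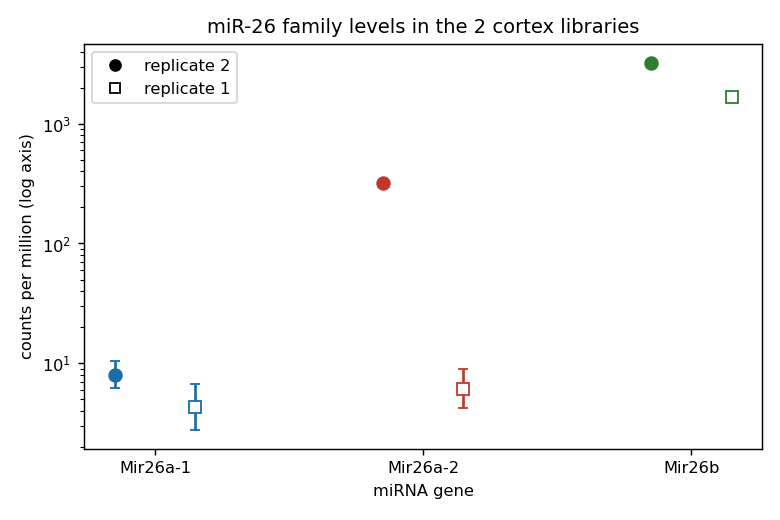
Level of each gene in CPM on a log axis, with replicate 2 as filled circles, replicate 1 as open squares and bars for the 95% Wilson interval (hidden by the symbol where narrow). Mir26b is highest in both libraries, Mir26a-1 is low in both, and Mir26a-2 stands at 320.4 CPM in replicate 2 against 6.10 CPM in replicate 1.

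The counted reads of the family took 0.354% of counts in replicate 2 (0.350 to 0.359) and 0.169% in replicate 1 (0.165 to 0.173). Reads matching both Mir26a genes are in no count, so the family's total and shares leave them out. The shares therefore do not compare miR-26b with miR-26a as mature strands. The make-up of the family's counted reads differed between the libraries. Mir26b supplied 90.7% of the family's counts in replicate 2 (90.4 to 91.1) and 99.4% in replicate 1 (99.2 to 99.5). Mir26a-2 supplied 9.04% in replicate 2 (8.69 to 9.40) and 0.361% in replicate 1 (0.248 to 0.525), an odds ratio of 27.4 in Fisher's exact test of counts (two-sided, p = 1.05e-221), a comparison of libraries that covers counting error and no condition. Mir26a-1 supplied 0.226% in replicate 2 (0.174 to 0.294) and 0.254% in replicate 1 (0.163 to 0.396), intervals that overlap.

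Ratios taken within a library need no scaling of the libraries. There were 40.0 Mir26a-2 counts for each Mir26a-1 count in replicate 2 and 1.42 in replicate 1, a change of 28.0 times (exact interval 13.8 to 55.8). Against Mir26b, Mir26a-2 changed by 27.4 times (18.8 to 41.8). Mir26a-1 against Mir26b changed by 0.975 times (0.570 to 1.74), with 401 Mir26b counts for each Mir26a-1 count in replicate 2 and 391 in replicate 1. Mir26a-1 and Mir26b thus kept their proportion within counting error, although an interval this wide allows a change in either direction.

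The difference between the libraries was then set against all genes. There were 438 genes that reached 2 CPM in each library, the 3 members among them. An exact binomial test (two-sided) on library sizes scaled by TMM was run on each, with Benjamini-Hochberg adjustment over all 438. Calls needed both a ratio of 2 or more and an adjusted p below 0.05. All 3 members were called, each higher in replicate 2, where 9.36% of the tested genes (41) were called in that direction, 8.22% (36) were called higher in replicate 1, and 17.6% were called in either. The log2 ratio of replicate 2 over replicate 1 was 5.82 for Mir26a-2 (exact interval 5.30 to 6.45), a ratio of 56.3 times. It was 1.06 for Mir26b (1.03 to 1.10) and 1.00 for Mir26a-1 (0.25 to 1.86, adjusted p = 0.0121 in the exact binomial test). The adjusted p of Mir26a-2 and Mir26b in that exact test was 0 at machine precision. Such p-values cover counting error only and take no account of the spread between replicate libraries. The members' median log2 ratio was 1.06, against -0.03 over all 438 genes.

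The members stood at different places in the spread of all genes. No other detected gene had a log2 ratio as large as that of Mir26a-2 in either direction. The next toward replicate 2 were Snord43, named as a small nucleolar RNA, at 2.79, and Mir9-1, a copy of a neural miRNA, at 2.65. Mir26b ranked 32 and Mir26a-1 ranked 41 toward replicate 2, and 66 and 78 genes had a larger ratio than them in either direction. The biological coefficient of variation between the libraries over these genes was 0.412. Scaled by library totals, which moved the median of all genes to -0.16, Mir26b (0.94) and Mir26a-1 (0.88) fell short of the ratio and Mir26a-2 (5.69) alone was called, where 6.62% of genes were called toward replicate 2 and 18.9% in either direction. Calls over all genes numbered 29 toward replicate 2 and 54 toward replicate 1 under that scaling. The unstranded column (0.997) and thinning of the deeper library (0.79) likewise left Mir26a-1 short of a call.

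**Figure D4:**
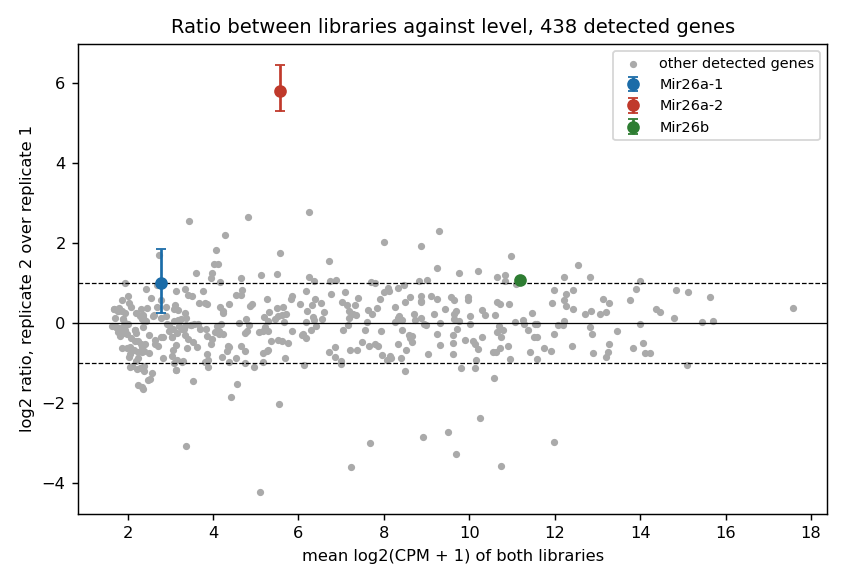
Log2 ratio of replicate 2 over replicate 1 (y axis) against mean log2(CPM + 1) (x axis) for 438 detected genes in grey and the 3 members in colour with exact 95% counting intervals, the dashed lines marking a ratio of 2 in either direction. Mir26a-2 at 5.82 lies above every other gene, and Mir26b and Mir26a-1 lie at the dashed line.

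The libraries also differed in markers of other cells. Epithelial markers summed to 517 CPM in replicate 2 and 6740.1 CPM in replicate 1. Of these, 3 of 3 were called higher in replicate 1, against 8.22% of all tested genes. Choroid plexus markers summed to 1764 and 781 CPM, with 2 of 2 called higher in replicate 2, against 9.36% of all tested genes. The neuron, oligodendrocyte, microglia and vascular markers held 0 calls among 10 tested genes, against 17.6% of all tested genes called in either direction. This does not mean equal levels, since a call needed a ratio of 2. Mir126a (log2 ratio 0.97), Mir132 (0.66), Mir150 (0.65) and Mir155 (0.61) had an adjusted p below 0.05 in the exact binomial test. So did Mir219a-2 (0.42), Mir128-1 (0.29) and Mir138-1 (0.05). The rest did not, with Mir143 at 0.02 and Mir338 and Mir223 at -0.03 each. The red blood cell marker Mir451a had 75 counts in replicate 2 and 8 in replicate 1. Mir144, the other marker of that list, went the other way, with 0 and 3 counts. Both lay below the minimum for the test. The muscle marker Mir206 had a log2 ratio of 0.69 and was not called. The labels cite a different document on adapter trimming for each library, so trimming and replicate cannot be told apart. The part of these differences in the members' ratios was not tested. In bulk tissue, fewer cells of a type and less RNA per cell cannot be told apart.

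The contrast between the 2 Mir26a loci was compared with that of other miRNAs that have paired loci. Of 24 other listed pairs, 20 had both genes detected, 3 had a gene below the minimum and 1 had no matching symbol, and 18 of the 20 shared an identical mature sequence in the RefSeq table. The gap in log2 ratio between Mir26a-2 and Mir26a-1 was 4.81 (exact interval 3.79 to 5.80). Among the other 20 pairs the size of the gap had a median of 0.46 and ran from 0.06 for Mir30c-1 and Mir30c-2 to 1.92 for Mir24-1 and Mir24-2, and 17 of the 20 lay under 1. After Mir24 came Mir7-1 and Mir7-2 at 1.11. The Mir26a gap was wider than those of all 20 other pairs. It was also wider than those of the 17 other pairs detected in the unstranded column, where the next was 1.38, and of the 22 others with at least 1 count per gene, where the next was 2.12 for Mir9-1 and Mir9-2. These are descriptions of the 2 libraries and were not tested over samples.

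**Figure D5:**
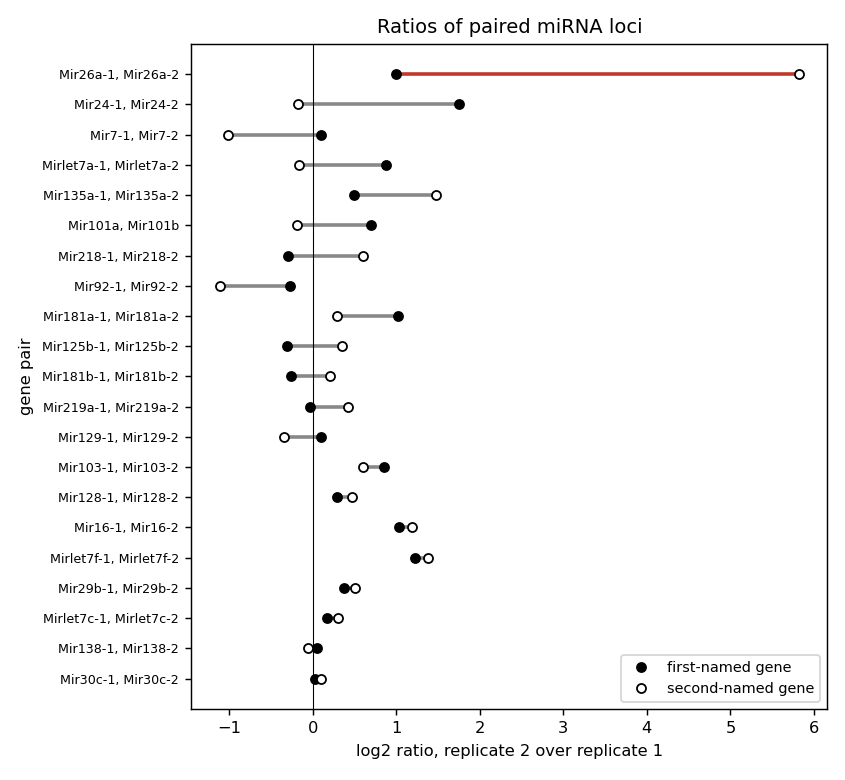
Log2 ratio of replicate 2 over replicate 1 (x axis) for the genes of each detected pair (rows), with the first-named gene as a filled point, the second-named as an open point and a line for the gap between them. The Mir26a pair, in red at the top, spans 1.00 to 5.82, and the widest other gap is 1.92.

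A list of miRNAs in introns of other host genes, most of them in families of related hosts, was set beside the members. Of its 11 genes, all detected, 1 was called higher in replicate 2 (Mir16-2 of the Smc4 intron, log2 ratio 1.19) against 9.36% of all genes, and 1 higher in replicate 1 (Mir153 of Ptprn2, -1.52) against 8.22%, with a median of 0.47. The ratios of Mir16-2 and Mir153 were larger in size than those of Mir26b and Mir26a-1. Mir107, in an intron of a Pank (pantothenate kinase) gene, had 2895 CPM in replicate 2 against 3214 CPM in replicate 1, near the level of Mir26b in replicate 2 but above it in replicate 1, and a log2 ratio of -0.03. The paired genes Mir128-2 and Mir128-1, abundant in neurons, had 0.47 and 0.29.

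The genes whose level and ratio were most like those of each member were found by distance in the plane of mean log2(CPM + 1) and log2 ratio over the 2 libraries. For Mir26b they were Mir126a, an endothelial miRNA in Egfl7 (distance 0.12, 2948 CPM in replicate 2 against 1641 CPM in replicate 1), Mir411 of the imprinted Dlk1-Dio3 cluster (0.35) and Mir31 (0.37). For Mir26a-1 they were Mir146b (0.11, 7.30 CPM in replicate 2 against 4.06 CPM in replicate 1), Mir103-1 (0.38) and Mir670 (0.40). Mir26a-2 had no near neighbour. The closest was Snord43 at a distance of 3.11, which had 189 CPM in replicate 2 against 29.8 CPM in replicate 1. Next came Mir9-1 at 3.26 and n-TSaga9 at 3.85.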

How the data were processed

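Small RNA was sequenced from 2 libraries of mouse cerebral cortex. The authors deposited 1 table of raw read counts per library, not normalized, on mm10 with annotation M21 per the labels and readme text. No source used here names the aligner, the counter or a version. The 4 lines of each table that name no gene were left out of library sizes. They held 47.9% reads placed at several loci, 11.1% unmapped and 2.81% outside genes in replicate 2, and 43.9%, 17.0% and 3.67% in replicate 1. In the unstranded column 2.15% and 1.74% were ambiguous. All 3 columns gave the same number of uniquely placed reads (7499592 and 4888589). The stranded column with the larger total was taken as sense.

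Counts were scaled to CPM. TMM factors and dispersion came from edgeR 4.0.16 (R 4.3.3), DESeq2 1.42.0 size factors were an alternative, and tests used scipy 1.17.1. Log2 ratios had 0.5 counts added to each count. On simulated counts of the 438 detected genes, with counting error only, the test at an adjusted p under 0.05 recovered 174 of 200 genes with a 2-fold change (6 of 238 unchanged genes passing) and 193 of 200 with a 4-fold change (7 of 238). The simulation was scaled by library totals, not TMM, and genes passed in it without the ratio of 2. It held no spread between libraries, so its rates are not those of the calls reported here. Precursors were folded with RNAfold 2.7.2 and aligned with Biopython 1.88.

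The members, lists and tests were chosen with earlier results of these data known. The genes named were the members, the 3 detected genes nearest to each, the paired-loci, intronic-host and REST lists, and the cell markers. Leading genes by ratio were named after their values were seen.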

Additional observations from a re-analysis of the deposited data

How the results depend on the processing

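Of 18 alternative values of the members' log2 ratios, 14 kept their call and none changed direction, and those of Mir26a-2 ran from 5.69 to 5.91. With library totals 1 of the 3 members was called, as Mir26b gave 0.94 and Mir26a-1 gave 0.88. For Mir26a-1, the unstranded column gave 0.997 and thinning of the deeper library 0.79 (on 1 random draw), so 2 members were called there, where 16.6% and 17.1% of all genes were called. All 3 were called with the GC trend removed (13.2% of all genes), with no low-count filter (11.1%) and with size factors from DESeq2 (17.6%). At a ratio of 1.5, 169 of 438 genes were called, 38.6% of them, against 77 at a ratio of 2. The cause of these differences was not tested beyond the threshold and scaling themselves. Leaving out a replicate gave 1678 to 3215 CPM for Mir26b, 6.10 to 320.4 CPM for Mir26a-2, 4.29 to 8.02 CPM for Mir26a-1, 0.169% to 0.354% for the family and 0.361% to 9.04% for the share of Mir26a-2. The level of Mir26a-2 is thus decided by which library is kept, and 27 counts limit its precision in replicate 1. No paired analysis was possible because the series holds 1 group.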

Other observations

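Among genes that the RefSeq table matched by symbol, 94 carried a mature sequence shared with another gene. Of these, 46 were detected and 14 were called in either direction. Of 924 with no shared sequence, 349 were detected and 58 were called in either direction. Over all 438 tested genes, 77 (17.6%) were called in either direction. The median log2 ratio of replicate 2 over replicate 1 was 0.30 for detected genes with a shared sequence and -0.06 for the others, a difference that was not tested.

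Of 8 listed neuronal miRNA genes that REST represses outside neurons, 4 were detected. Of these, 2 were called higher in replicate 2, against 9.36% of all tested genes. They were Mir9-1 (log2 ratio 2.65, with 449 counts in replicate 2 and 49 in replicate 1) and Mir9-3 (2.56, with 157 and 18). Mir9-2 and the 3 Mir124a genes had counts in both libraries but lay under 2 CPM in at least 1. Mir9-1 and Mir9-2 share 2 mature sequences, and reads placed at several loci are in no gene's count. Low counts of such genes do not show that a mature miRNA is absent. Mir132 (0.66) and Mir212 (-0.34), which share 1 locus, were not called. The median of the 4 detected genes was 1.61, against -0.03 over all genes tested, and lay near the ratio of none of them.

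Ctdsp2 holds a second annotated miRNA gene, Mir546, 2826 bases beyond Mir26a-2. It had 2 counts in replicate 2 and 0 in replicate 1, below the limit that 3 counts set.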
